A study of Rattus norvegicus with 9 samples.

Results

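The genes described here encode transporters, mostly of amino acids, of the solute carrier (Slc) families 1, 3, 6, 7, 36, 38 and 43, measured in rat adrenal zona glomerulosa cells. Members were all probe sets whose single gene symbol in the array's annotation began with Slc1a, Slc3a, Slc6a, Slc7a, Slc36a, Slc38a or Slc43a, except Slc7a11. This gave 71 probe sets for 52 symbols, out of 31042 probe sets that were not controls. Of the symbols, 51 belong to transporter genes. The other, Slc7a6os, carries a transporter's name only because it lies beside Slc7a6 on the opposite strand, and its product is not a transporter. Some of the 51 carry other substrates, such as the serotonin transporter Slc6a4 and the creatine transporter Slc6a8.

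Freshly dispersed cells were incubated in 9 tubes, and the RNA of each was hybridized to its own Affymetrix array for the rat genome. Each of 3 independent cell preparations gave 1 control tube under basal conditions, 1 tube with 100 nM Ang II (angiotensin II) and 1 tube with 16 mM potassium. All tubes were kept for 2 h at 37 °C in the same albumin-containing DMEM:F12 medium. The labels give no strain, age or sex of the animals, no pooling of animals and no potassium concentration for the control tubes. Angiotensin II and extracellular potassium are the main physiological stimuli of aldosterone secretion by these cells, and the comparisons ask how each changed transcript levels after that time.

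Amino acid transporters differ in what drives them. Many Slc7 light chains exchange large neutral or cationic amino acids across the membrane and reach the cell surface as disulfide-linked partners of a heavy chain, Slc3a1 or Slc3a2. Slc7a1 and its relatives carry cationic amino acids without a heavy chain, while members of the Slc1, Slc6 and Slc38 families use the sodium gradient, so the membrane potential and ion gradients bear on their transport. In many cell types the transcripts of Slc7a5, Slc3a2, Slc7a1, Slc1a4 and Slc38a2 belong to the amino acid response, in which the transcription factor Atf4 binds elements with the core TGATGNAA.

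The promoter windows of 3 members on which the results turn are shown because they differ in the motifs they hold: Slc7a1 holds the amino acid response core, Slc7a5 an E-box, and Slc7a6os none of the motifs searched. Each is the 250 bases before the gene's start in RefSeq, assembly GRCr8, written 5′ to 3′ on the gene's strand, with the motif in capitals. The windows are chr12:11664238-11664487 (plus strand) for Slc7a1, chr19:66872413-66872662 (minus strand) for Slc7a5 and chr19:51020515-51020764 (minus strand) for Slc7a6os.
Slc7a1: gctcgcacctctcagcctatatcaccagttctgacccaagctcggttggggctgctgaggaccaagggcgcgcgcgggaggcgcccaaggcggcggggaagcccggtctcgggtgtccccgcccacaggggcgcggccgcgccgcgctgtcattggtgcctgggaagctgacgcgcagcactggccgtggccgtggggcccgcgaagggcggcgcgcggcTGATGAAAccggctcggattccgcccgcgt
Slc7a5: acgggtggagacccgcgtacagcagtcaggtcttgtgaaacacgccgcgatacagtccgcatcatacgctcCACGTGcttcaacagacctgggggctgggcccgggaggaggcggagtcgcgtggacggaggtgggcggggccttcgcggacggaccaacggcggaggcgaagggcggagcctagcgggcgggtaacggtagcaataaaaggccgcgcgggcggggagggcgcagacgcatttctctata
Slc7a6os: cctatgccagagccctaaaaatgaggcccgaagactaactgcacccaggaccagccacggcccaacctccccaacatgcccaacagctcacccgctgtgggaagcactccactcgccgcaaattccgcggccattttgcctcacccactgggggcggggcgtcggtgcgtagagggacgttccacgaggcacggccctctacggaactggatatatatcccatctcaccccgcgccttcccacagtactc

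In the Slc7a1 window the match TGATGAAA began 30 bases before the start, on the gene's strand. In the Slc7a5 window CACGTG began 179 bases before the start and, being a palindrome, matched on both strands. Of the 40 member genes with a window of this length, 3 (7.50%) held TGATGNAA on either strand, against 3.58% of the 27457 genes in the table, and these were Slc1a4, Slc38a1 and Slc7a1. The E-box CACGTG was held by 7 (17.5%), against 6.18% of genes. These were Slc1a4, Slc7a5, Slc38a7, and Slc1a6, Slc36a1, Slc43a1 and Slc7a14, of which the last named, from Slc1a6 on, were too dim to be tested below. The full cyclic AMP response element TGACGTCA was held by 1 member, Slc38a6 (2.50%, against 1.78% of genes). The Nr4a monomer site AAAGGTCA was held by none (1.30% of genes). The windows of Slc7a6 and Slc7a6os held none of these 4 motifs, but the start used for Slc7a6 lies inside the gene's span in the gene table, so its window may belong to an alternative start. These are matches of letters within 250 bases, not binding sites, and no binding was measured.

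Levels are given as signal, the linear intensity in the deposited table, and differences as log2 fold changes of (signal + 16), a scale that understates changes of dim probe sets. Dim probe sets, with a mean log2 value at or under the 40th percentile, were not tested. This kept 18625 probe sets and 35 of the 71 members, covering 26 genes. Every p-value is from limma with the cell preparation as a block, adjusted by the Benjamini-Hochberg method over those 18625. A probe set was called where the adjusted p was under 0.05. Where a gene had several probe sets, it stands by the one with the highest mean signal.

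The tested members had mean signals between 87.2 and 11389, with a median of 340. The 36 untested probe sets had mean signals between 7.70 and 84.0, and none of their signals in any tube exceeded 209. For 26 genes every probe set lay under the filter. Among them were the glutamate transporter Slc1a2, the cationic transporters Slc7a2 and Slc7a3, the light chain Slc7a10, the proton-coupled Slc36a1, and Slc38a3, Slc38a4, Slc38a9 and Slc43a1. The others were Slc1a6, Slc36a3, Slc38a6, Slc6a2, Slc6a3, Slc6a5, Slc6a11, Slc6a13, Slc6a14, Slc6a15, Slc6a18, Slc6a20b, Slc7a4, Slc7a9, Slc7a12, Slc7a13 and Slc7a14. Fitted without the filter, none of the 36 was called in any comparison, and an unadjusted p under 0.05 was found in 3 for Ang II and 2 for potassium, each against control, and in 1 between the stimuli. Slc36a4 and Slc43a3 were not analysed here.

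Of the 35 tested probe sets, 0 passed the test for Ang II against control (2.20% of all tested probe sets did), 2 for potassium against control (5.36%) and 2 for Ang II against potassium (4.79%). Slc7a6, a light chain that exchanges cationic for neutral amino acids, fell 1.70-fold in potassium. Slc7a6os rose 1.41-fold in potassium. Slc7a5, the light chain for large neutral amino acids, was 1.79-fold higher in Ang II than in potassium tubes. Slc7a1, the widely expressed cationic transporter, was 1.23-fold higher in Ang II than in potassium tubes. All 4 calls kept their sign under the 23 other settings tried but were lost without the intensity trend in limma's variance prior, with adjusted p-values of 0.13, 0.14, 0.26 and 0.23 in that order.

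**Figure D1:**
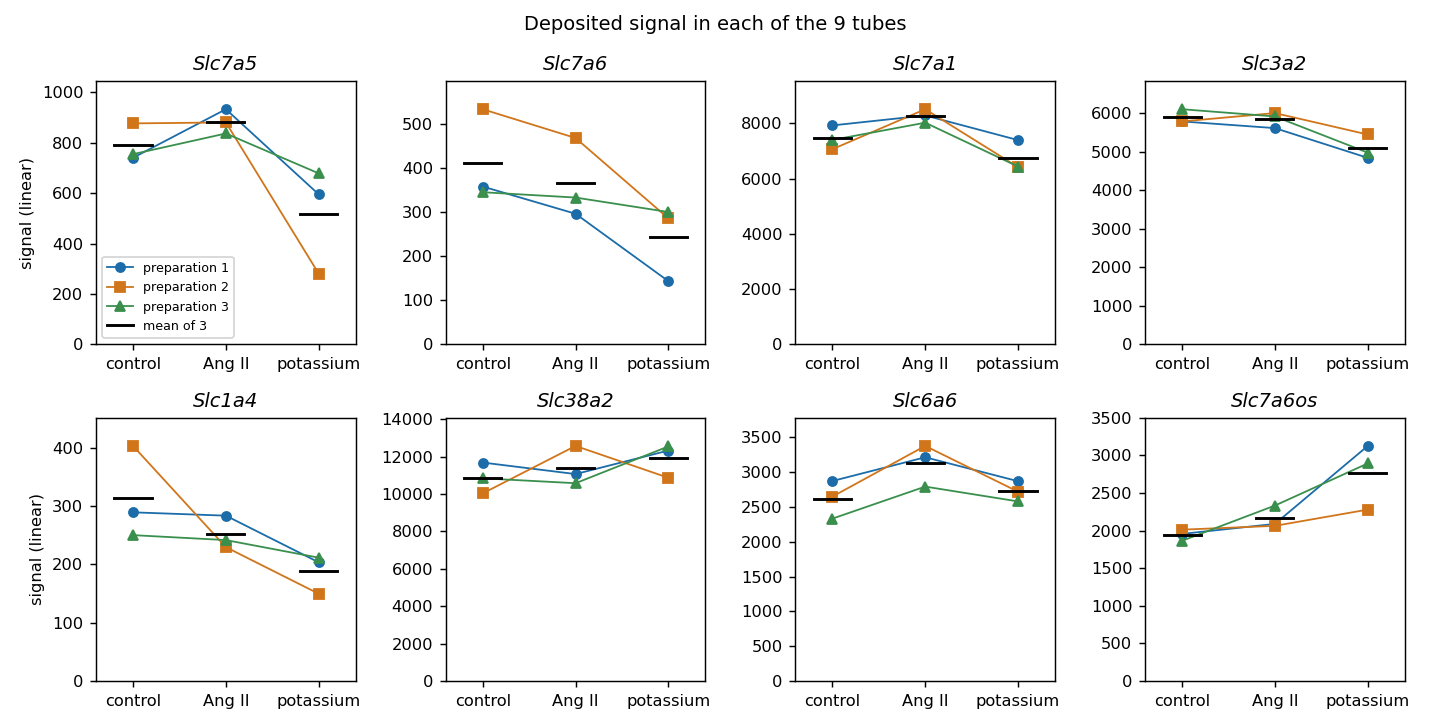
Deposited signal (vertical axis, linear, from 0) of 8 member genes in the control, Ang II and potassium tubes. Each colour and symbol is 1 of the 3 cell preparations, lines join tubes of a preparation, and black bars are means of 3. In Slc7a5, Slc7a6, Slc3a2 and Slc1a4 every potassium tube lies under every control tube, in Slc7a6os every potassium tube lies above, and in Slc38a2 the groups overlap.

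The heavy and light chains were examined first. Slc7a5 had signals of 741, 877 and 755 in the control tubes of preparations 1, 2 and 3, of 934, 881 and 837 in the Ang II tubes, and of 595, 280 and 679 in the potassium tubes. The potassium tubes were the lowest in each preparation and overlapped with neither other group, and the potassium tube of preparation 2 stood well under the other two. Means were 791 ± 75.0 in control, 884 ± 48.2 in Ang II and 518 ± 210 in potassium (SD, n = 3). Ang II exceeded potassium by 0.84 ± 0.21 (log2, SE), with a 95% interval from 0.40 to 1.29 and an adjusted p of 0.029. Without the potassium tube of preparation 2 this difference was 0.43 (adjusted p = 0.097), and the difference between potassium and control was -0.27. The call was also lost without the potassium tube of preparation 1 (0.056), the Ang II tube of preparation 1 (0.11) or 2 (0.19), the whole of preparation 1 (0.15) or 2 (0.080), or the preparation block (0.081), and with robust eBayes (0.11). With all tubes, potassium stood under control by -0.68 ± 0.21 (adjusted p = 0.075), which missed the threshold. Ang II differed from control by 0.16 ± 0.21 (interval -0.28 to 0.60).

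Slc7a6 had signals of 357, 532 and 344 in the control tubes, 296, 467 and 332 in the Ang II tubes and 143, 285 and 300 in the potassium tubes. Potassium was the lowest tube of each preparation, and control and potassium did not overlap. The means were 411 ± 105, 365 ± 90.4 and 243 ± 86.6 (SD, n = 3). Potassium differed from control by -0.76 ± 0.18 (SE), with an interval from -1.15 to -0.37 and an adjusted p of 0.023. The value was -0.65 (adjusted p = 0.036) when arrays were centred on their medians. The call was lost without the control tube of preparation 1 (adjusted p = 0.13) or 2 (0.096), the potassium tube of preparation 1 (0.16) or 2 (0.10), and the whole of preparation 1 (0.26) or 2 (0.13). It was also lost without the preparation block (0.17), with the preparation as a random block (0.062) and with only the 2 groups compared in the fit (0.051). Ang II differed from control by -0.16 ± 0.18 (adjusted p = 0.75).

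Slc7a6os, which encodes a nuclear protein linked to the transport of RNA polymerase II, showed the opposite order. Its signals were 1956, 2012 and 1864 in control, 2089, 2063 and 2333 in Ang II and 3126, 2279 and 2893 in potassium. All potassium tubes lay above all control tubes, and so did all Ang II tubes, although the 3 Ang II tubes were closer to control. Potassium exceeded control by 0.49 ± 0.10 (interval 0.29 to 0.70, adjusted p = 0.0067). The call was lost without the potassium tube of preparation 1 (adjusted p = 0.072), the control tube of preparation 3 (0.052), or preparation 1 (0.13) or 3 (0.067). Ang II differed from control by 0.15 ± 0.10 (adjusted p = 0.52) and from potassium by -0.34 ± 0.10 (adjusted p = 0.058). In GRCr8, Slc7a6 and Slc7a6os are direct neighbours, between Pla2g15 and Prmt7. The array's probes were not mapped here, so whether either probe set also reads the other strand's transcript was not tested.

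Slc3a2, the heavy chain that partners Slc7a5, Slc7a6, Slc7a7 and Slc7a8, had signals of 5788, 5789 and 6105 in control, 5615, 6005 and 5917 in Ang II and 4842, 5449 and 4977 in potassium. The potassium tubes lay under all tubes of both other groups, by a narrow margin relative to the level. Potassium differed from control by -0.21 ± 0.06 (interval -0.35 to -0.07) and the adjusted p of 0.075 missed the threshold. The rescalings moved it both ways, to -0.10 (adjusted p = 0.67) with median centring and to an adjusted p of 0.011 after quantile normalization. Ang II differed from control by -0.01 ± 0.06 (interval -0.15 to 0.13), and by 0.10 when arrays were centred on their medians. Slc3a1, the other heavy chain, ranged from 1016 to 1291 in control, 1028 to 1536 in Ang II and 1172 to 1626 in potassium, and its differences from control were 0.08 ± 0.15 and 0.20 ± 0.15.

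Of the remaining light chains, Slc7a8, a neutral amino acid exchanger, had signals of 339, 153 and 317 in control, 420, 354 and 353 in Ang II and 373, 175 and 347 in potassium. All Ang II tubes lay above all control tubes, and the control and potassium tubes of preparation 2 were low. Ang II exceeded control by 0.52 ± 0.19 (interval 0.12 to 0.93), with an adjusted p of 0.20. The value was 0.37 without the control tube, 0.23 without the Ang II tube and 0.22 without any tube of preparation 2. Slc7a7, the relative of Slc7a6 found in epithelia and phagocytes, differed from control by -0.01 ± 0.19 in Ang II and -0.15 ± 0.19 in potassium. The 4 tested light chains were all higher in Ang II than in potassium tubes by their estimates, with a median of 0.49, and 1 of the 4 was called (3.09% of all tested probe sets were called higher in this comparison).

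The cationic transporter Slc7a1 had signals of 7929, 7067 and 7403 in control, 8290, 8515 and 8027 in Ang II and 7397, 6417 and 6439 in potassium. The Ang II tubes lay above every tube of both other groups, and control and potassium overlapped. Ang II exceeded potassium by 0.30 ± 0.07 (interval 0.16 to 0.44), with an adjusted p of 0.015. The adjusted p was 0.21 when arrays were centred on their medians, with the same difference of 0.30. The call was also lost without the preparation block (0.071), without the Ang II or potassium tube of preparation 2 (0.12 and 0.096) or 3 (0.059 and 0.091), and without any whole preparation (0.073, 0.11 and 0.10 for 1, 2 and 3). Ang II differed from control by 0.15 ± 0.07 (adjusted p = 0.30) and potassium from control by -0.15 ± 0.07 (adjusted p = 0.24), and neither was called, although quantile normalization gave an adjusted p of 0.039 for potassium.

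The other Slc7a1 probe sets did not give the same values. A second bright one was 4663, 4347 and 4726 in control, 4539, 4386 and 4764 in Ang II and 4222, 3611 and 4118 in potassium. There the potassium tubes alone stood apart: potassium differed from control by -0.20 ± 0.07 (adjusted p = 0.094), Ang II from potassium by 0.20 ± 0.07 (adjusted p = 0.12) and Ang II from control by -0.00 ± 0.07. The dimmest, with mean signals of 99.2, 79.5 and 141 in control, Ang II and potassium, gave -0.71 ± 0.31 for Ang II against potassium (adjusted p = 0.26), the opposite sign.

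**Figure D2:**
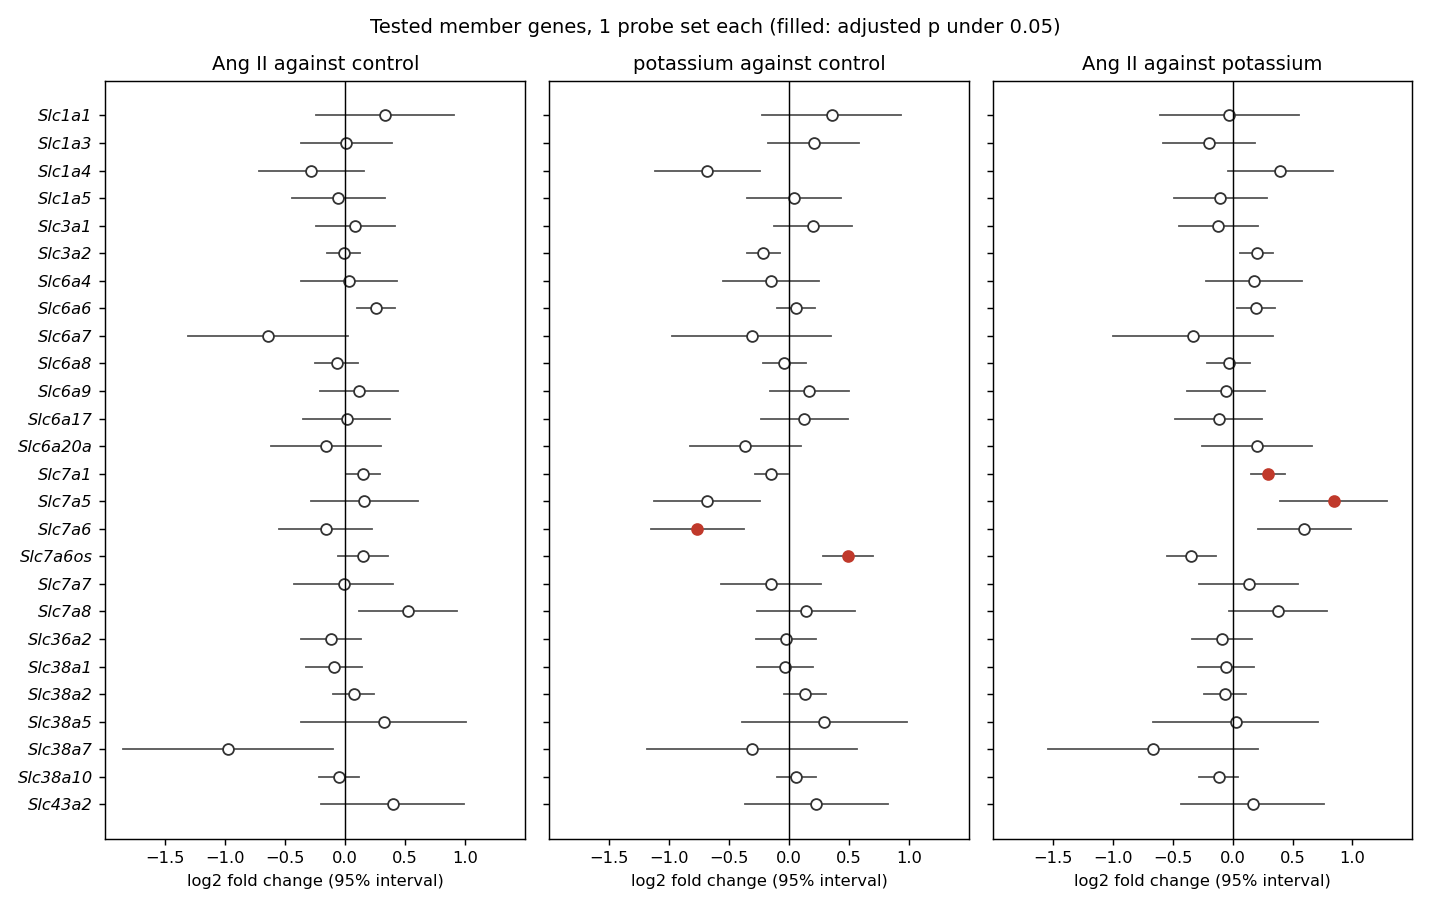
Log2 fold change (horizontal axis) with its 95% interval for the 26 tested genes, 1 probe set each, in the 3 comparisons. Filled points have an adjusted p under 0.05 from limma: none for Ang II against control, Slc7a6 and Slc7a6os for potassium against control, and Slc7a1 and Slc7a5 for Ang II against potassium.

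Among the Slc1 transporters, Slc1a4, which carries alanine, serine and cysteine, had signals of 289, 403 and 250 in control, 284, 230 and 242 in Ang II and 203, 150 and 211 in potassium. The potassium tubes lay under all others, with the widest gap in preparation 2. Potassium differed from control by -0.68 ± 0.21 (interval -1.12 to -0.24, adjusted p = 0.073) and Ang II by -0.28 ± 0.21 (adjusted p = 0.59), and neither was called. The potassium value was -0.39 without the control tube of preparation 2 and -0.35 without that preparation. Slc1a5, the glutamine carrier of the same family, had signals of 713, 1326 and 1529 in control, 917, 1416 and 989 in Ang II and 1270, 1164 and 1076 in potassium. Its control tubes spread over a wider range than the other groups, and its differences from control were -0.06 ± 0.18 in Ang II and 0.04 ± 0.18 in potassium. The glutamate transporter Slc1a3 gave 0.01 ± 0.18 and 0.21 ± 0.18, and Slc1a1, also a glutamate transporter, 0.33 ± 0.27 and 0.36 ± 0.27. A second, dimmer Slc1a1 probe set gave 0.21 ± 0.27 in Ang II and -0.22 ± 0.27 in potassium. The dimmer tested Slc1a3 probe set gave 0.23 ± 0.32 and -0.20 ± 0.32.

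Slc38a2, the sodium-coupled neutral amino acid transporter that many cells raise on amino acid shortage, had signals of 11681, 10032 and 10838 in control, 11065, 12571 and 10576 in Ang II and 12324, 10867 and 12543 in potassium. The 3 groups overlapped. Its differences from control were 0.07 ± 0.08 in Ang II (interval -0.10 to 0.24) and 0.13 ± 0.08 in potassium (interval -0.04 to 0.31), so a fall of the size estimated for Slc7a6 lay outside both intervals. Slc38a1 gave -0.09 ± 0.11 and -0.04 ± 0.11, and its other tested probe set had the opposite sign in both. Slc38a10 gave -0.05 ± 0.08 and 0.06 ± 0.08, with signals from 1892 to 1907 in control and 1938 to 2014 in potassium. Slc38a7, a lysosomal glutamine transporter, gave -0.98 ± 0.41 in Ang II (adjusted p = 0.28), where its 3 signals were 79.7, 150 and 16.2 against 94.8, 178 and 165 in control. That estimate therefore leaned on 1 dim tube, and Slc38a5, also dim, gave 0.32 ± 0.32.

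In the Slc6 family the taurine transporter Slc6a6 came closest to the threshold for Ang II against control. Its signals were 2873, 2649 and 2332 in control, 3214, 3377 and 2792 in Ang II and 2870, 2719 and 2580 in potassium. Ang II was the highest tube of each preparation, but the groups overlapped because preparation 3 was low throughout. The difference from control was 0.26 ± 0.07 (interval 0.10 to 0.41, adjusted p = 0.094). Its second probe set read 1097, 1382 and 1364 in control, 1030, 1267 and 1323 in Ang II and 1111, 1113 and 777 in potassium, and gave -0.09 ± 0.13 in Ang II and -0.36 ± 0.13 in potassium (adjusted p = 0.15). The creatine transporter Slc6a8 gave -0.07 ± 0.08 in Ang II and -0.04 ± 0.08 in potassium, and the glycine transporter Slc6a9 gave 0.12 ± 0.15 and 0.17 ± 0.15. The other Slc6a8 probe set had the opposite sign in Ang II and the same sign in potassium. A dimmer Slc6a9 probe set lay under the filter and was not tested. It read 37.0, 31.6 and 37.9 in control, 81.4, 82.0 and 65.7 in Ang II and 115, 41.5 and 96.6 in potassium. Every tube with a stimulus lay above every control tube there, but it was not called when fitted without the filter. The serotonin transporter Slc6a4, the proline transporters Slc6a7 and Slc6a20a, and Slc6a17 were not called in any comparison.

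Slc43a2, a carrier of large neutral amino acids, differed from control by 0.40 ± 0.28 in Ang II and 0.23 ± 0.28 in potassium. Its second, dimmer probe set gave -0.01 and 0.08. Slc36a2, a proton-coupled transporter of small amino acids, differed from control by -0.12 ± 0.12 and -0.03 ± 0.12. In both genes the groups overlapped, and neither was called. Of the 8 genes with more than 1 tested probe set, the probe sets had the same sign in 3 for Ang II against control, in 3 for potassium against control and in 2 for Ang II against potassium. The standard errors of the 35 members ran from 0.06 to 0.41 with a median of 0.18, so small changes of dim transporters were not detectable with 3 preparations.

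The members' counts were read against all tested probe sets. For Ang II against control, 0 of 35 members were called, against 2.20% of all tested probe sets in either direction (1.66% higher and 0.532% lower), and 4 had an unadjusted p under 0.05, against 14.5%. In 3 members all Ang II tubes lay above all control tubes (7.30% of all tested), and in none did they all lie below (7.75%). The members' median was 0.01, beside -0.03 over all tested probe sets, and their range was -0.98 to 0.52.

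For potassium against control, 2 of 35 members (5.71%) were called, Slc7a6os higher and Slc7a6 lower, against 5.36% of all tested probe sets (2.78% higher and 2.58% lower). The share of members called was near that of the array as a whole. Without Slc7a6os, which is no transporter, 1 of 34 (2.94%) was called. With 1 probe set per gene, 2 of 26 (7.69%) were. An unadjusted p under 0.05 was found in 8 members (18.8% of all tested), of which 7 were lower in potassium (10.0% of all tested). In 6 members, namely probe sets of Slc1a4, Slc3a2, Slc6a7, Slc7a1, Slc7a5 and Slc7a6, all potassium tubes lay below all control tubes (9.78% of all tested), and in 3, of Slc1a1, Slc38a10 and Slc7a6os, all lay above (7.84%). Slc6a7 and Slc1a1, both dim, were almost tied. The highest potassium signal of Slc6a7 was 103.0 and its lowest control signal 103.1. For the brighter Slc1a1 probe set, the lowest potassium signal was 130.6 and the highest control signal 130.4. The median of the members was -0.03, beside -0.02 for all tested probe sets.

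For Ang II against potassium, 2 of 35 members were called, both higher in Ang II, against 4.79% of all tested probe sets (3.09% higher and 1.70% lower). An unadjusted p under 0.05 was found in 8 members (16.2% of all tested), of which 6 were higher in Ang II (8.51%). All Ang II tubes lay above all potassium tubes in 7 members (9.72% of all tested), from Slc1a1, Slc1a4, Slc3a2, Slc7a1, Slc7a5 and Slc7a7, and below them in 2, from Slc38a10 and Slc7a1 (9.06%). For Slc1a1 this was the dimmer probe set, at 0.43 ± 0.27 (adjusted p = 0.48). The brighter one, by which the gene stands, gave -0.03 ± 0.27, and its groups overlapped. The median of the members was 0.03, beside -0.01. The comparisons share tubes, so they are not independent of each other. Centring arrays on their medians moved the median of all tested probe sets from -0.03 to 0.09 for Ang II and from -0.02 to 0.09 for potassium against control. The calls over all probe sets then went from 310 higher and 99 lower to 413 and 34 for Ang II, and from 518 and 480 to 704 and 183 for potassium.

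**Figure D3:**
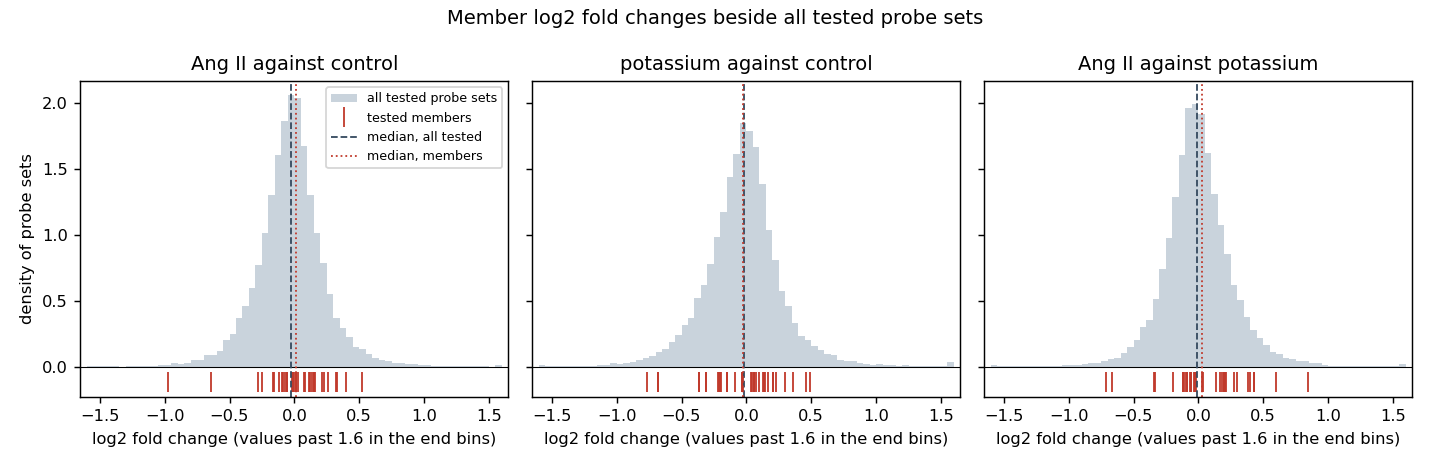
Distribution of log2 fold changes (horizontal axis, values past 1.6 gathered in the end bins) of all 18625 tested probe sets as grey density, with 1 red tick for each of the 35 tested members and lines for both medians. The members spread across the middle of each distribution, and their medians of 0.01, -0.03 and 0.03 lie beside -0.03, -0.02 and -0.01 for all tested probe sets.

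Other genes of amino acid handling were taken from 3 lists. Of 21 carriers outside these families, 15 were tested. Slc17a6, a vesicular glutamate transporter, rose in Ang II by 1.99 ± 0.27 (adjusted p = 0.00058) and fell in potassium by 1.06 ± 0.27 (adjusted p = 0.031), from 130 ± 38.2 in control to 553 ± 67.7 and 54.1 ± 18.5 (SD, n = 3). The fall in potassium was called in 11 of the 22 alternatives where it was tested. It was -0.90 (adjusted p = 0.088) after quantile normalization, -0.68 (0.17) without the potassium tube of preparation 1, -0.62 (0.35) without that whole preparation and -0.71 (0.043) with a pseudocount of 64. Without the filter the fall had an adjusted p of 0.071, and the potassium mean lay under the filter's signal of 81.9. The rise in Ang II was called in 21 of 22. Slc66a1, a lysosomal exporter of cationic amino acids, differed from control by -1.23 ± 0.34 in potassium (adjusted p = 0.045), a call that held in 6 of the 22 alternatives where it was tested. It was lost without the filter (0.0997), with median centring (0.052) and with quantile normalization (0.092). Without single control or potassium tubes or preparations the adjusted p reached 0.27. The signal of Slc66a1 over all tubes had a median of 76.4 and ran from 47.6 to 210, beside a filter signal of 81.9. Slc7a11, the cystine and glutamate exchanger that also pairs with Slc3a2, was higher in Ang II than in potassium by 0.78 ± 0.20 (adjusted p = 0.033), a call held in 13 of 23 alternatives, with means of 291 ± 62.4 in control, 374 ± 121 in Ang II and 203 ± 4.80 in potassium. Of the 15, 1 was called higher and none lower in Ang II, none higher and 2 lower in potassium, and 2 higher and none lower between the stimuli, beside the array-wide shares given above. The medians of the list were -0.09, -0.18 and 0.07 for Ang II and potassium against control and for Ang II against potassium.

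Of 29 genes of amino acid sensing and of the growth kinase complex mTORC1, 27 were tested. Eif4ebp1, the repressor of cap-dependent translation that mTORC1 inactivates, fell in both stimuli, by 0.47 ± 0.10 in Ang II (adjusted p = 0.016) and by 0.97 ± 0.10 in potassium (adjusted p = 1.5e-05). Its mean signals were 1576 ± 110 in control, 1132 ± 22.7 in Ang II and 800 ± 72.4 in potassium. Median centring gave -0.36 for Ang II (adjusted p = 0.13) and -0.86 for potassium, and over the 23 alternatives the calls held in 13 and 23. Sesn2, a leucine sensor that restrains mTORC1, fell in potassium by 0.31 ± 0.08 (adjusted p = 0.039; 0.38 with median centring, where the value was -0.20) and was higher in Ang II than in potassium by 0.47 ± 0.08. Ddit3, a stress transcription factor, was lower in Ang II than in potassium by -0.29 ± 0.08 (adjusted p = 0.040; 0.18 with median centring). The last 2 genes kept the call between Ang II and potassium in 21 alternatives for Sesn2 and 8 for Ddit3, and the fall of Sesn2 in potassium held in 8. Of the 27 genes, 1, 2 and 3 were called for Ang II, for potassium and between the stimuli (2.20%, 5.36% and 4.79% of all tested probe sets), and the medians were -0.05, -0.10 and 0.02.

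Of 41 enzymes of amino acid synthesis and breakdown, 35 were tested. In potassium 5 of the 35 fell and none rose, beside 2.58% lower and 2.78% higher among all tested probe sets. These were Psat1 by 0.77 ± 0.10 and Psph by 0.76 ± 0.13, both of serine synthesis, Chac1, which degrades glutathione, by 0.64 ± 0.08, Asns, asparagine synthetase, by 0.62 ± 0.10, and Aldh18a1, of proline synthesis, by 0.53 ± 0.12. Their adjusted p-values ran from 0.00015 for Chac1 to 0.019 for Aldh18a1, which had 0.069 with median centring and stayed called in 14 of the 23 alternatives. The other 4 stayed called in 22 or 23. Signals fell from 1069 ± 96.0 to 688 ± 34.7 in Asns and from 1040 ± 59.2 to 605 ± 16.8 in Psat1. In Ang II 2 rose and none fell, beside 1.66% and 0.532% of all tested probe sets. These were Bcat1, the cytosolic branched-chain aminotransferase, by 1.01 ± 0.18 (adjusted p = 0.0063) and Mat2a, which makes S-adenosylmethionine, by 0.42 ± 0.06 (adjusted p = 0.0016).

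In Ang II against potassium 8 of the 35 enzymes were higher and none lower, beside 3.09% higher and 1.70% lower among all tested probe sets. The largest differences among them were Bcat1 at 1.54 ± 0.18, Aldh18a1 at 0.60 ± 0.12, Psat1 at 0.52 ± 0.10 and Asns at 0.49 ± 0.10. Mat2a gave 0.32 ± 0.06 and Odc1, which starts polyamine synthesis, 0.26 ± 0.06. Median centring ended 4 of the 8 calls, with adjusted p-values of 0.16 for Mat2a, 0.28 for Odc1, 0.070 for Psph and 0.13 for Chac1. Over the 23 alternatives the call held in 23 for Bcat1, 21 for Psat1, 19 for Asns, 17 for Aldh18a1, 14 for Mat2a, 13 for Chac1, 11 for Odc1 and 7 for Psph. The medians of the enzymes were 0.00, 0.02 and -0.01 in the 3 comparisons, close to those of all tested probe sets. All 3 lists, like the members, were chosen with earlier results of these data known.

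**Figure D4:**
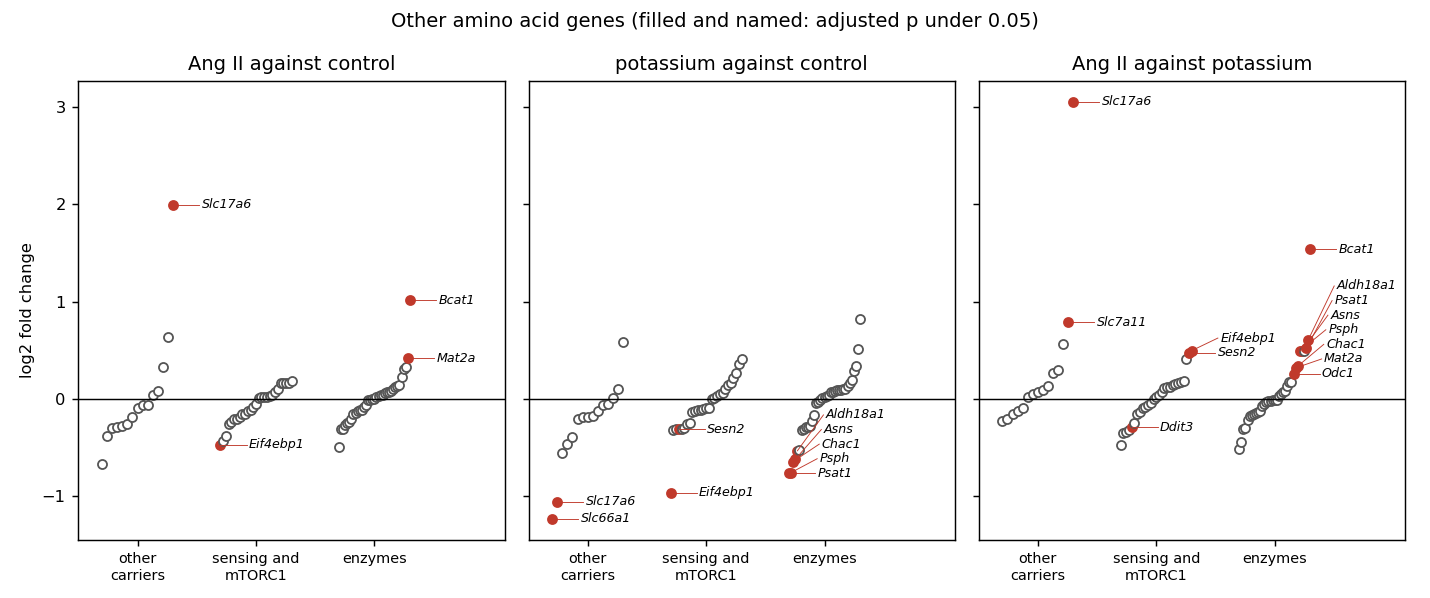
Log2 fold change (vertical axis) of each tested gene of the 3 further lists, 1 point per gene sorted by value within its list. Filled, named points have an adjusted p under 0.05 from limma. The 5 called enzymes lie below 0 in potassium against control and 8 lie above 0 in Ang II against potassium.

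The cell type on the labels was compared with its markers. All 9 zona glomerulosa markers with a probe set were tested, and their summed signal was 67504 to 72674 in control, 71107 to 75141 in Ang II and 72690 to 78197 in potassium, of which only Star was called against control. Star and Cyp11a1, with median signals over all tubes of 22825 and 24091, made up most of this sum. Both are genes of steroid synthesis that are not particular to this zone, so the sum does not tell it from other cortical zones. Among the other markers, Dab2 and Vsnl1 had medians of 11580.5 and 6168, and Kcnk9 was dim at 89.5. Cyp11b2 and Hsd3b2 were not analysed here. Summed signals of 9 medulla markers were 2703 to 3499 in control, 2488 to 3289 in Ang II and 2543 to 3680 in potassium. Those of 6 endothelial markers were 21486 to 27122, 21815 to 26659 and 22895 to 27325. The 2 fasciculata markers with a probe set gave 29774 to 34651, 32090 to 33708 and 31485 to 34110. Most of that signal was Akr1b7 (median 28696), and little was Cyp11b1 (median 3045). Those of 6 capsule fibroblast markers were 15703 to 19020, 15156 to 18966 and 17272 to 20168, of 7 macrophage markers 2384 to 3333, 2477 to 3300 and 2308 to 2908, of 3 nerve markers 205 to 312, 182 to 305 and 260 to 299, and of 2 red cell markers 16941 to 19837, 16128 to 20085 and 16775 to 21056. No marker of these other cell types was called. Slc18a1, Phox2a, Vwf, Cd163, Sox10 and Gfap were too dim to be tested, and no marker with a probe set was at 0. Fewer cells of a type and less RNA per cell cannot be told apart in such samples, and the part of cell makeup in the transporter results was not tested. Array medians ran from 128 to 173.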

How the data were processed

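RNA from 9 tubes was measured on 1 array each. The authors deposited linear intensity values. GCOS, software of the array's manufacturer, is named in the submitters' processing notes; which version ran, how background was treated and how probes were summarised is not given in the sources used here. Groups and preparations came from the sample titles. Gene names are those of the platform annotation, checked against RefSeq genes of GRCr8, which changed no member's symbol; 20826 probe sets had 1 symbol, 436 had several and 9780 had none, and the latter were not named.

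In R 4.3.3, 57 control probe sets were left out, and log2(signal + 16) of 18625 probe sets, without further scaling, was fitted for the 3 groups together in limma 3.58.1, with the preparation as a fixed block and an intensity trend. The fit had 4 residual and 10.7 prior degrees of freedom, and Benjamini-Hochberg adjustment ran over each comparison. The script was tested on simulated data. The 3 preparations are the replicates, and their number limits the precision. The design text pairs the tubes. Deviations from group means correlated at 0.09 to 0.27 within preparations and at -0.21 to 0.05 between them. Centring each group on its mean ties these ranges together, since positive values within preparations bring down those between them.

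Named with values were every member called in any comparison and a list of members set by function; from each other list, called genes, at most 6 per comparison by smallest p. The members and all lists were chosen with earlier results of these data known. The 23 alternatives comprised 2 other pseudocounts (1 and 64), no filter and the 60th percentile, median centring, quantile normalization, no trend, robust eBayes, no block, a random block, only the 2 groups compared, and 12 fits without 1 array or 1 preparation. Promoter windows were searched on both strands; parts past the gene's start were left out.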

Additional observations from a re-analysis of the deposited data

How the results depend on the processing

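With 0 members called for Ang II against control under all 23 alternatives (and 4 at an unadjusted p under 0.05 in limma), only the other comparisons moved. For potassium against control, 2 members were called. The count was 5 after quantile normalization (Slc3a2, 2 probe sets of Slc7a1, Slc7a6 and Slc7a6os), 0 without the intensity trend, and 1 (Slc7a6os) with no replicate block, with a random block and with only the 2 groups compared. For Ang II against potassium, 2 were called, and the count was 1 with median centring (Slc7a5), 1 with robust eBayes (Slc7a1), and 0 without the intensity trend or with no replicate block. It was 3, with Slc7a6os added as lower in Ang II, with the 60th percentile filter and with only the 2 groups compared. Dropping the block thus lost Slc7a6 for potassium against control, and Slc7a1 and Slc7a5 for Ang II against potassium. A random block lost Slc7a6 alone, and the call of Slc7a6os in potassium stayed under both. Leaving out arrays or preparations gave 0 to 3 for each of these comparisons and 0 to 0 for Ang II against control. The cause of each change was not tested, beyond fewer arrays in the fits that leave some out. The 4 called values kept their sign under all alternatives, and 27 of the 56 uncalled values of tested named genes changed sign under at least 1. Dim probe sets had the widest errors, and 36 members were too dim to be tested.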
